A study of Mus musculus with 18 samples.

Results

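The 10 genes described here encode parts of the machinery that cuts proteins into peptides and shows those peptides to T cells. They were chosen by name: Nlrc5, B2m, Tap1, Tap2, Tapbp, Psmb8, Psmb9, Psmb10, Erap1 and Cd74. All 10 were found among the 23930 mouse genes of the deposited count tables, and all 10 were among the 11316 genes that passed the filter on low counts. RNA was read in CD4 and CD8 T cells sorted by fluorescence from the bone marrow of mice. The mice were C57BL/6 given zinc-enriched water, pMT-10 given zinc-enriched water, and pMT-10 given control water, each for 30 days. In pMT-10 mice a metallothionein promoter, induced by zinc, drives a transgene for interleukin-10 (IL-10). Which cells use that promoter is not given in the sources used here; neither is age, and sex is read from the data below. The series names 3 mice of each kind, which gave 18 libraries in 6 groups of 3.

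Nearly every nucleated cell displays peptides from its own proteins on MHC class I, a heavy chain held by beta-2-microglobulin (B2m). The proteasome makes the peptides. Its catalytic subunits can be exchanged for the immunoproteasome subunits Psmb8, Psmb9 and Psmb10, for example in an inflamed cell. The transporter formed by Tap1 and Tap2 carries peptides into the endoplasmic reticulum, tapasin (Tapbp) holds the empty class I molecule beside it, and Erap1 trims peptides that are too long. Nlrc5 is the transcriptional activator of class I genes, and interferon-gamma induces many genes of this pathway. Cd74, the invariant chain, belongs to the separate MHC class II pathway of B cells, macrophages and dendritic cells, where it fills the groove of newly made class II molecules; mouse T cells make little or no class II.

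The RefSeq promoter table for GRCm38.p6 held 7 of the 10 genes: B2m, Psmb10, Erap1, Tapbp, Psmb9, Tap1 and Psmb8. The 250 bases before each start were searched on both strands for cores of elements known from class I promoters. The stretch between Tap1 and Psmb9 counts as promoter of both by this rule, because 225 bases separate their RefSeq starts, which point away from each other. The B2m promoter is shown because it held the core of the interferon-stimulated response element, of the X2 box and of the Y box together. Capitals mark the matches, in order: the response element core (GAAA, any 2 bases, GAAA), TGACG of the X2 box, and ATTGG, the reverse complement of CCAAT of the Y box.
B2m, chr2:122147437-122147685, plus strand: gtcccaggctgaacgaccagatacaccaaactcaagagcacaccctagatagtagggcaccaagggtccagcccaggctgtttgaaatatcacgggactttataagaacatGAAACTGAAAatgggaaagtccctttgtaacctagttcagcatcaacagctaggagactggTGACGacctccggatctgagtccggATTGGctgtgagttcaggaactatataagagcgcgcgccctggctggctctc

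The X2 and Y matches between Tap1 and Psmb9 are shown beside those of B2m, and the Psmb8 window holds its match to TTCNNNGAA, the core of a gamma-activated site. Each window is 30 bases of the plus strand with the match in capitals. A window before a RefSeq start can lie inside a longer GENCODE model. The Psmb8 window lies in an exon of one Psmb8 model (34197790 to 34198545), and both Tap1 and Psmb9 windows lie in an exon of one Psmb9 model (34187250 to 34187764). The Y window also touches exons of 3 further Psmb9 models.
B2m X2, chr2:122147595-122147624: agctaggagactggTGACGacctccggatc
Tap1 and Psmb9 X2, chr17:34187456-34187485: tgcccagagacaggTGACGacagagggtcc
B2m Y, chr2:122147620-122147649: ggatctgagtccggATTGGctgtgagttca
Tap1 and Psmb9 Y, chr17:34187326-34187355: tcggctttCCAATcagcggctgcgcgcggt
Psmb8, chr17:34198087-34198116: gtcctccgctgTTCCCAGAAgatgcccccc
The B2m and Tap1 windows, both placed with TGACG at the same position, shared 19 of 30 bases, with an unbroken run of 9. Both figures include TGACG, which is shared by construction. How many bases other promoters with TGACG share was not tested.

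Positions below count back from the RefSeq start, with -1 the base before it. B2m held the response element core at -139, TGACG at -78 and CCAAT at -53. Tap1 held TGACG at -86 and CCAAT at -222, and the same letters lie at -144 and -8 of Psmb9. Tapbp held CCAAT at -248 and -165, and Psmb8 held TTCNNNGAA at -97, a pattern that reads the same on both strands. Short cores are common. Over the 32851 promoters of the table, the response element core was found in 2.98%, TTCNNNGAA in 7.02%, TGACG in 17.8% and CCAAT in 33.8%. Among the 7 promoters these were found in 1, 1, 3 and 4, and these matches describe letters, not binding.

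The genes lie at the following places on GRCm38, the assembly also called mm10. A stretch of chromosome 17 inside the mouse MHC holds 5 of them. There, Psmb9 spans 34181987 to 34187764 on the minus strand and Tap1 spans 34187553 to 34197225 on the plus strand. Psmb8 follows at 34197721 to 34201454, with 495 bases between the end of Tap1 and its start, and Tap2 at 34203527 to 34216321. Tapbp lies 252.695 kb to the left of Psmb9, at 33915899 to 33929292. Nlrc5 (94434356 to 94527272) and Psmb10 (105935735 to 105938444) are on chromosome 8. B2m is on chromosome 2 (122147686 to 122153083), Erap1 on chromosome 13 (74639568 to 74693201) and Cd74 on chromosome 18 (60803848 to 60812652). The models of Tap1 and Psmb9 overlap on opposite strands. The sources used here do not give the position or strand of the amplicons, so reads of the overlap would count for either gene.

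Library totals lay between 10546798 and 18519474 counts. CD4 and CD8 libraries kept to their sort: Cd4 lay at 1654 to 3405 CPM (counts per 1000000 counts of a library, after scaling) in CD4 libraries and at 0 to 5.56 CPM in CD8 libraries, while Cd8a lay at 0.213 to 10.03 CPM and 1817 to 2572 CPM. Il10 lay at 16.6 to 26 CPM in zinc-fed pMT-10 CD4 libraries and at 1.40 to 8.25 CPM in the other CD4 libraries. In CD8 libraries it had 0 counts in all 6 control libraries and 3.2 to 22.4 CPM in zinc-fed pMT-10. Ifng, the interferon-gamma gene, lay at 467 to 816 CPM in zinc-fed pMT-10 CD4 cells against 30.6 to 76.7 CPM in both CD4 controls, and at 155 to 351 CPM against 5.79 to 18.8 CPM in CD8 cells. Ddx3y, of the Y chromosome, lay at 110 to 206 CPM in C57BL/6 libraries and at 0 to 0.683 CPM in pMT-10 libraries. Xist lay at 0.172 to 40.1 CPM against 527 to 1003 CPM, so sex cannot be told apart from strain. In C57BL/6, CD4 replicate 3 held 510 counts of Xist, the other CD4 libraries 6 and 97, and CD8 libraries 2, 23 and 12. Replicate 3 also had the highest Ifng, Nlrc5, Tap1, Tap2, Tapbp, Psmb8, Psmb9 and Psmb10 of these CD4 libraries. Its B2m, Erap1 and Cd74 were the lowest. The part of reads from another sample in these levels was not tested. Zinc-fed mice supplied the 12 libraries of 1 chip and the remaining 6 filled a second chip; effects of chip and of zinc therefore cannot be told apart.

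Compared with zinc-fed C57BL/6 mice, zinc-fed pMT-10 mice had higher RNA of 9 of the 10 genes in CD4 T cells: Nlrc5, Tap1, Tap2, Tapbp, Psmb8, Psmb9, Psmb10, Erap1 and Cd74. In CD8 T cells 4 of the 10 were higher: Nlrc5, Tap1, Tap2 and Cd74. B2m passed the test in neither. Calls are genes with an adjusted p under 0.05 in edgeR's quasi-likelihood test (Benjamini-Hochberg, over all genes tested); every adjusted p below is from that test unless another tool is named. Of all genes tested, 9.29% were called higher and 9.4% lower in this CD4 comparison, and 5.68% and 3.13% in the CD8 comparison. The median log2 change of the 10 genes was 0.84 in CD4 and 0.42 in CD8 cells, against -0.05 and -0.0037 over all genes. In CD4 cells all 3 zinc-fed pMT-10 libraries lay above all 3 C57BL/6 libraries for 10 of 10 genes, where 18.6% of all genes did so. In CD8 cells this held for 6 of 10, where 12.2% of all genes did so.

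**Figure D1:**
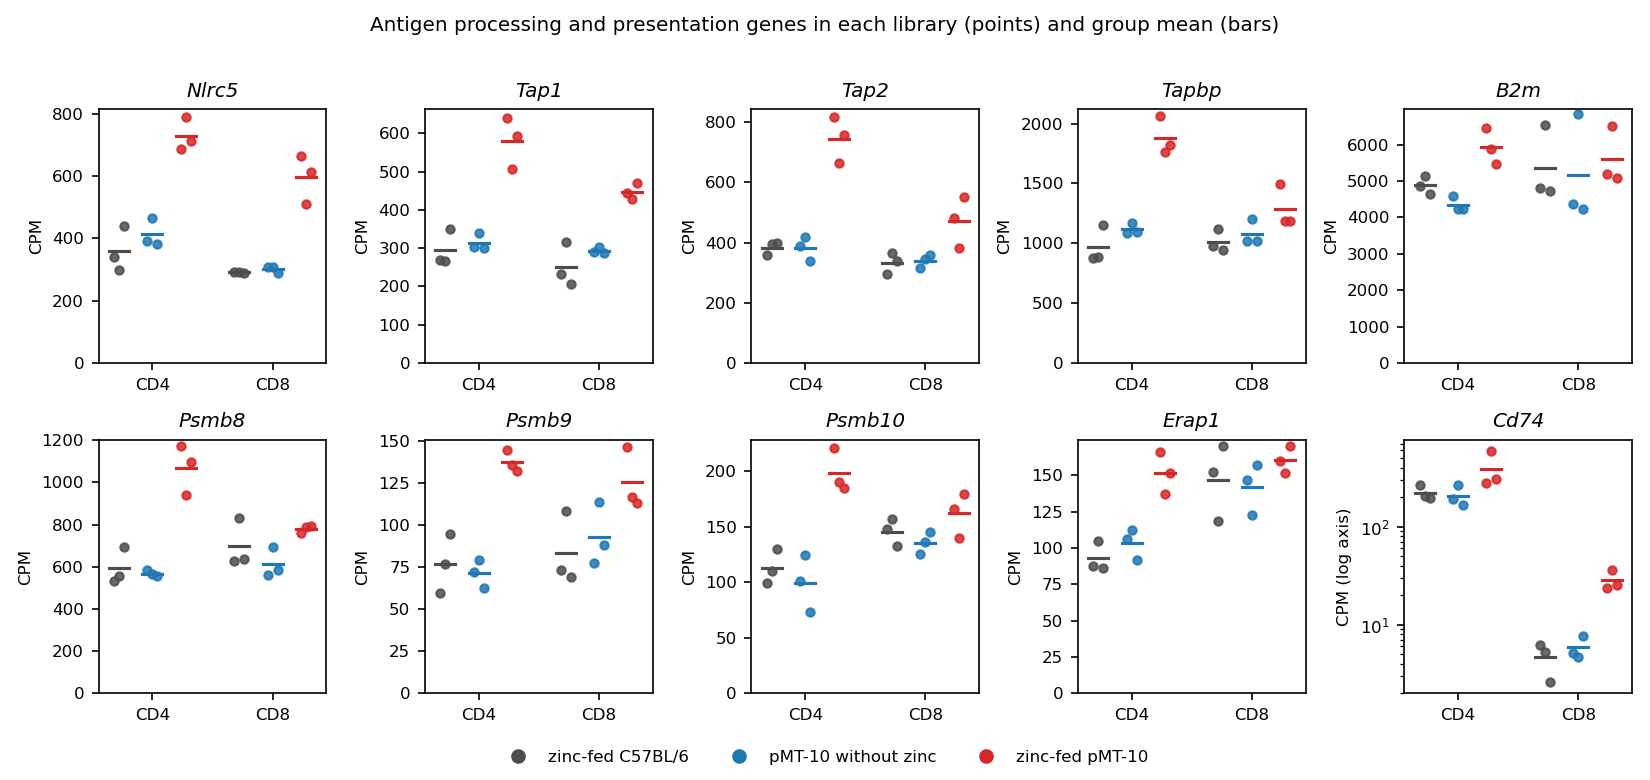
CPM of the 10 genes, 1 panel each, by group; points are the 3 libraries of a group and bars their mean. The axes are linear from 0, except that of Cd74, which is logarithmic. In CD4 cells the zinc-fed pMT-10 points lie above both control groups in all 10 panels, and in CD8 cells this is so for Nlrc5, Tap1, Tap2 and Cd74.

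Against pMT-10 mice without zinc, the same 9 genes were called higher in CD4 cells, where 9.38% of all genes were, and the same 4 in CD8 cells, where 5.1% were. The median log2 change of the 10 genes was 0.90 and 0.39. This comparison uses the same zinc-fed pMT-10 libraries as the one with C57BL/6, so the counts from the comparisons are not independent of each other. Every zinc-fed pMT-10 library lay above every library of pMT-10 mice without zinc for 10 of 10 genes in CD4 cells (21% of all genes) and for 5 of 10 in CD8 cells (11.9%).

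The third comparison set the controls against each other. Between pMT-10 without zinc and zinc-fed C57BL/6, log2 changes of the 10 genes ran from -0.18 to 0.20 in CD4 cells and from -0.19 to 0.36 in CD8 cells. Neither comparison called any of them with edgeR, and 0 of 10 had an unadjusted p under 0.05 in either cell type; DESeq2 also called 0. Over all genes tested, 0.141% were called in CD4 cells and 0.0972% in CD8 cells. B2m was the gene of the 10 whose control groups did not overlap, lower in pMT-10 CD4 cells without zinc at 4220 to 4597 CPM against 4640 to 5139 CPM; 5.48% of all genes were lower without overlap there.

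**Figure D2:**
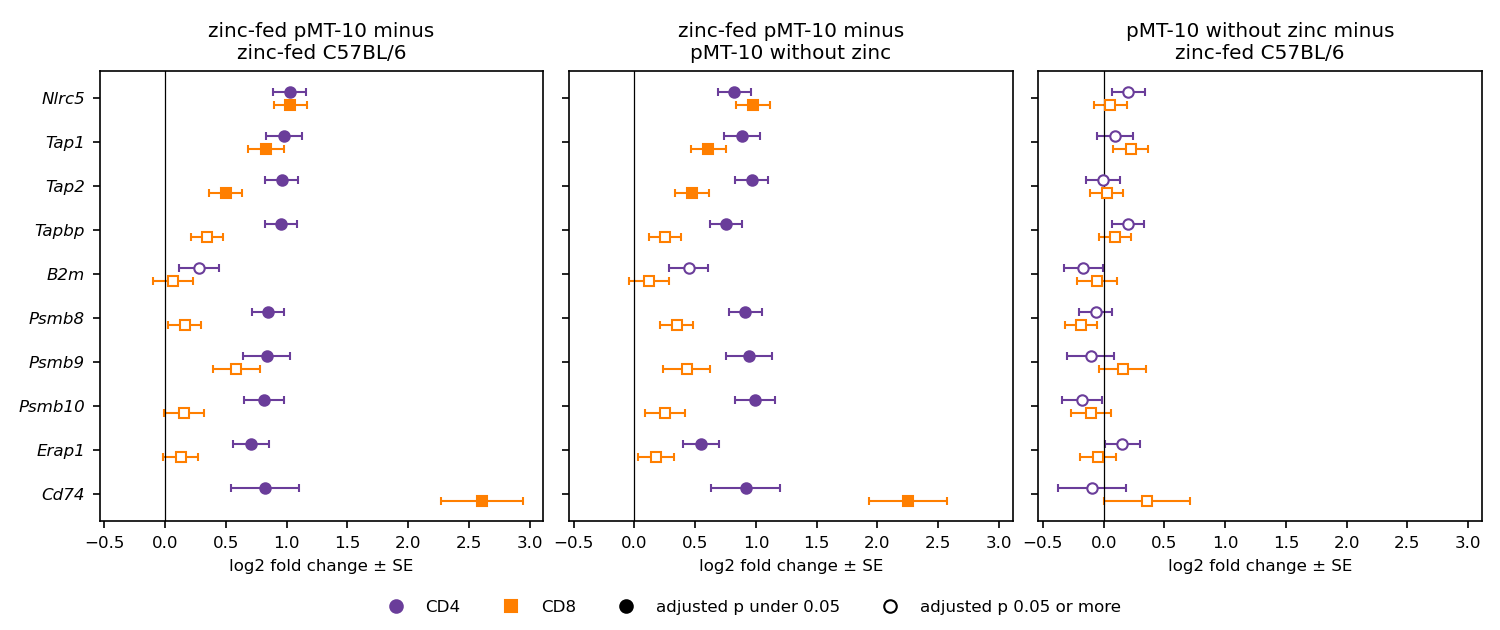
Log2 change of each gene with its standard error in 3 comparisons; circles are CD4 cells, squares CD8 cells, and filled symbols have an adjusted p under 0.05 in edgeR's quasi-likelihood test. Filled symbols stand at 9 genes in CD4 cells and at 4 in CD8 cells against each control, and at none between the controls.

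Nlrc5, the activator of class I genes, rose about equally in both cell types. In CD4 cells it lay at 687, 789 and 714 CPM in zinc-fed pMT-10, at 339, 299 and 439 CPM in zinc-fed C57BL/6, and at 391, 465 and 382 CPM in pMT-10 without zinc. The zinc-fed pMT-10 group stood clear of both others. Its mean of 730 ± 53.2 CPM (SD, n = 3) was 2.03-fold that of C57BL/6, 359 ± 71.8 CPM (SD, n = 3), a log2 change of 1.02 (SE 0.14, adjusted p 1.77e-05). In CD8 cells Nlrc5 lay at 664, 512 and 613 CPM in zinc-fed pMT-10, at 293, 293 and 291 CPM in C57BL/6 and at 310, 309 and 291 CPM without zinc. Both CD8 control groups were tight and far below. The CD8 change was 2.04-fold, 1.03 on the log2 scale (SE 0.14, adjusted p 3.85e-05). Against pMT-10 without zinc the log2 changes of Nlrc5 were 0.82 (adjusted p 0.000178) and 0.98 (adjusted p 6.67e-05). The difference between the CD8 and CD4 change was 0.01 (SE 0.19, adjusted p 1).

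The regulators named with the pathway moved with it in part. Of 17 tested regulators of MHC genes, 7 rose and 2 fell in CD4 cells against C57BL/6, and 3 rose in CD8 cells. Of all genes tested, 9.29% rose and 9.4% fell in CD4 cells, and 5.68% rose in CD8 cells. The median log2 changes of the 17 were 0.09 and 0.02. Irf1, an interferon-induced factor that acts on class I and immunoproteasome genes, rose from a mean of 676 to 1759 CPM in CD4 cells (log2 1.38, adjusted p 6.63e-07). In CD8 cells Irf1 rose from 520 to 1516 CPM (adjusted p 3.54e-07). Irf8, another factor of that family, rose from 49.1 to 171 CPM in CD4 cells and from 17.7 to 105 CPM in CD8 cells (adjusted p 6.43e-05 and 4.38e-06). Stat3, which carries the IL-10 signal, rose in CD4 cells (log2 0.78, adjusted p 0.000635) and had a log2 change of 0.46 in CD8 cells (adjusted p 0.0519). Ifngr2, a chain of the interferon-gamma receptor, fell in CD4 cells, from 36.8, 41.4 and 33.6 CPM to 5.22, 17.2 and 4.80 CPM (log2 -2.06, adjusted p 0.000152). Ciita, the activator of class II genes, was close to absent and did not pass the test (adjusted p 0.751 in CD4 and 0.588 in CD8 cells).

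The immunoproteasome subunits rose in CD4 cells and did not pass the test in CD8 cells. Psmb8, the subunit beta5i, lay at 1170, 938 and 1095 CPM in zinc-fed pMT-10 CD4 cells. The controls lay at 533, 558 and 692 CPM in C57BL/6 and at 583, 565 and 555 CPM without zinc, so the groups stood apart. The change against C57BL/6 was 1.80-fold (log2 0.85, SE 0.13, adjusted p 0.000119). In CD8 cells Psmb8 lay at 758, 786 and 796 CPM against 628, 829 and 638 CPM in C57BL/6, and these groups overlapped (log2 0.16, SE 0.13, adjusted p 0.523). The CD8 change of Psmb8 was smaller than the CD4 change, with a log2 difference of -0.69 (SE 0.19, adjusted p 0.036 for the interaction), where 5.49% of all genes had a called difference. When libraries were left out, that call was kept without C57BL/6 CD4 replicate 3, C57BL/6 CD8 replicate 1 or 3, or zinc-fed pMT-10 CD4 replicate 2, and was lost without any of the other 8 (adjusted p 0.0505 to 0.108 there). It was also lost when only library size was scaled (-0.52, adjusted p 0.0869). With pMT-10 without zinc as the control the difference was -0.57 (adjusted p 0.0979).

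Psmb9, the subunit beta1i, lay at 145, 136 and 132 CPM in zinc-fed pMT-10 CD4 cells, at 59.7, 77.2 and 94.8 CPM in C57BL/6 and at 72.4, 79.5 and 63.0 CPM without zinc. It rose 1.79-fold against C57BL/6 (log2 0.84, SE 0.19, adjusted p 0.0036). In CD8 cells it lay at 147, 117 and 113 CPM against 73.5, 109 and 69.3 CPM. The groups did not overlap there, but C57BL/6 replicate 2 came close and the log2 change of 0.58 missed the threshold (SE 0.19, adjusted p 0.0607). It passed without that library (0.83, adjusted p 0.0109), in DESeq2 (adjusted p 0.0322), with library size alone (adjusted p 0.0377) and without the low count filter (adjusted p 0.018). Against pMT-10 CD8 cells without zinc, at 77.5, 114 and 88.5 CPM, the groups overlapped (log2 0.43, SE 0.19, adjusted p 0.194). That change was called in 0 of 6 fits with a library left out and in 0 of 5 other settings without a fold minimum. Psmb10, the subunit beta2i, lay at 221, 190 and 185 CPM in zinc-fed pMT-10 CD4 cells against 99.1, 110 and 130 CPM in C57BL/6 and 101, 125 and 72.9 CPM without zinc. The rise was 1.76-fold against C57BL/6 (log2 0.81, SE 0.17, adjusted p 0.00135). In CD8 cells Psmb10 lay at 166, 140 and 180 CPM against 148, 157 and 133 CPM, with overlapping groups (log2 0.15, adjusted p 0.641).

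The constitutive proteasome gave a comparison within each library. Of its 11 tested subunits, 3 rose in CD4 cells against C57BL/6 (Psma2, Psma4 and Psmb3) and in CD8 cells 1 fell, Psmb6. Of all genes tested, 9.29% rose in CD4 cells and 3.13% fell in CD8 cells. The median log2 changes of the 11 were 0.31 and 0.06. Psmb6, the beta1 subunit that Psmb9 replaces, had a log2 change of 0.06 in CD4 cells (adjusted p 0.812), -0.05 when only library size was scaled. In CD8 cells it fell from 128, 150 and 133 CPM to 95.0, 87.4 and 99.1 CPM (log2 -0.54, adjusted p 0.0212). Psmb7, the beta2 subunit that Psmb10 replaces, had log2 changes of 0.31 and -0.11 (adjusted p 0.0961 and 0.668). Psmb5, the partner of Psmb8, was not analysed here. Psmb3 rose in CD4 cells (log2 0.54, adjusted p 0.00777) and had a CD8 change of -0.30, a difference of -0.84 between cell types (adjusted p 0.014). The proteasome activators Psme1, Psme3 and Psme4 had CD4 log2 changes of 0.26 to 0.55 and CD8 changes of -0.24 to 0.46, and the lowest adjusted p among them was 0.144. Against pMT-10 without zinc, 5 of the 11 constitutive subunits rose in CD4 cells (Psma1, Psma2, Psma4, Psmb2 and Psmb3), where 9.38% of all genes did. The median log2 change of the 11 was 0.45 there.

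The log2 ratio of Psmb9 to Psmb6 counts was taken within each library, so that library scaling cancels. A ratio's level also holds the unequal amplification of both amplicons, and only its differences between groups are compared. In CD4 cells the ratio was 0.23, 0.60 and -0.02 in zinc-fed pMT-10, against -0.78, -0.59 and -0.28 in C57BL/6 and -0.52, -0.33 and -0.77 without zinc. The difference from C57BL/6 was 0.82, or 1.76-fold. In CD8 cells the ratio was 0.63, 0.42 and 0.19, against -0.80, -0.46 and -0.94 in C57BL/6 and -0.61, -0.32 and -0.37 without zinc, a difference from C57BL/6 of 1.15, or 2.21-fold. Zinc-fed pMT-10 libraries stood above both controls in both cell types. Each of these differences had a two-sided exact permutation p of 0.1, the smallest that 3 against 3 can give, and over the 18 tests made on ratios the lowest adjusted value was 0.3. For Psmb10 to Psmb7 the difference from C57BL/6 was 0.51 in CD4 cells, without overlap, and 0.25 in CD8 cells, with overlap (exact permutation p 0.3).

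**Figure D3:**
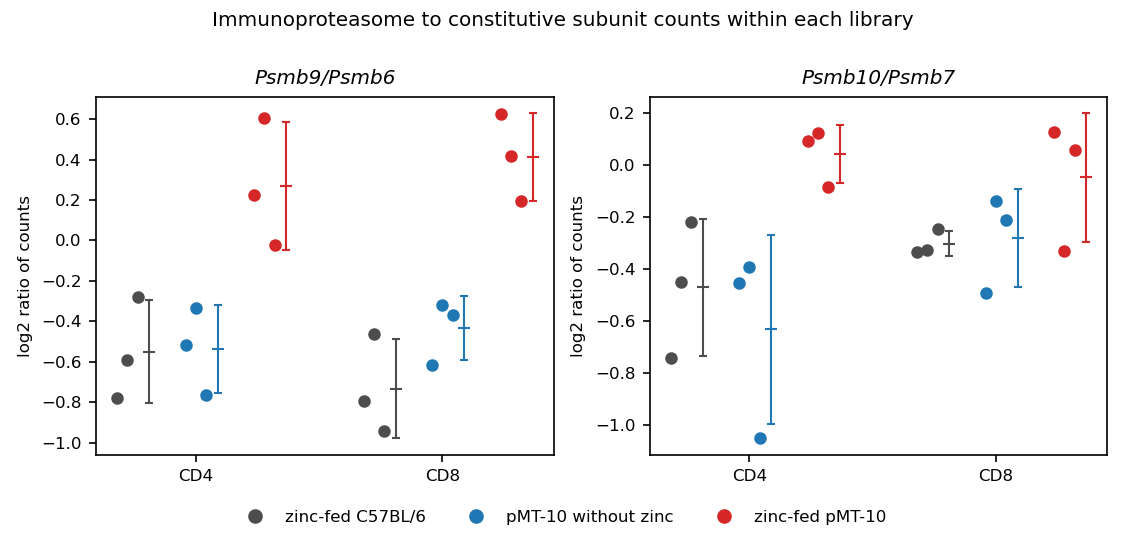
Log2 ratio of counts of Psmb9 to Psmb6 and of Psmb10 to Psmb7 in each library, with the mean and SD of the 3 libraries of a group. The Psmb9 to Psmb6 ratio of zinc-fed pMT-10 lies at -0.02 to 0.63, above the -0.94 to -0.28 of all control libraries.

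Tap1 and Tap2, the partner chains of the peptide transporter, rose in both cell types. Tap1 lay at 640, 506 and 593 CPM in zinc-fed pMT-10 CD4 cells, at 269, 266 and 349 CPM in C57BL/6 and at 302, 340 and 301 CPM without zinc. It rose 1.97-fold against C57BL/6 (log2 0.98, SE 0.15, adjusted p 6.95e-05). In CD8 cells Tap1 lay at 444, 428 and 470 CPM against 232, 316 and 207 CPM in C57BL/6 and 290, 302 and 288 CPM without zinc. Every zinc-fed pMT-10 library exceeded the control libraries. The change was 1.78-fold against C57BL/6 (log2 0.83, SE 0.15, adjusted p 0.000859) and 1.52-fold against pMT-10 without zinc (adjusted p 0.0109). The CD8 change minus the CD4 change was -0.15 (SE 0.21, adjusted p 0.737).

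Tap2 lay at 816, 662 and 757 CPM in zinc-fed pMT-10 CD4 cells, at 358, 394 and 398 CPM in C57BL/6 and at 388, 419 and 337 CPM without zinc. The rise was 1.94-fold against C57BL/6 (log2 0.96, SE 0.14, adjusted p 3.89e-05). In CD8 cells it lay at 482, 380 and 551 CPM against 296, 364 and 340 CPM in C57BL/6, where replicate 2 of each group came close to the other (380 and 364 CPM). The CD8 rise was 1.41-fold (log2 0.50, SE 0.14, adjusted p 0.0255). It was lost when replicate 1 or 3 of zinc-fed C57BL/6 or replicate 1 or 3 of zinc-fed pMT-10 was left out (log2 0.37 to 0.51, adjusted p 0.0688 to 0.139), and when CD8 libraries were fitted alone (adjusted p 0.0760). Against pMT-10 without zinc the CD8 call (log2 0.47, adjusted p 0.0361) was kept without zinc-fed pMT-10 replicate 2 and was lost without any of the other 5 libraries (adjusted p 0.065 to 0.194), without the low count filter (adjusted p 0.0562) and when CD8 libraries were fitted alone (adjusted p 0.101).

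Tapbp, tapasin, lay at 2060, 1764 and 1823 CPM in zinc-fed pMT-10 CD4 cells, at 878, 888 and 1149 CPM in C57BL/6 and at 1089, 1168 and 1091 CPM without zinc. It rose 1.94-fold against C57BL/6 (log2 0.95, SE 0.13, adjusted p 2.65e-05). In CD8 cells it lay at 1497, 1184 and 1185 CPM against 982, 1120 and 941 CPM. Replicate 1 of zinc-fed pMT-10 stood high and the other libraries lay close together (log2 0.35, SE 0.13, adjusted p 0.108). The difference between its CD8 and CD4 changes, -0.61, missed the threshold (SE 0.19, adjusted p 0.0578). It passed in DESeq2 (adjusted p 0.0215) and without C57BL/6 CD4 replicate 3, zinc-fed pMT-10 CD8 replicate 1 or zinc-fed pMT-10 CD4 replicate 2 (adjusted p 0.0204, 0.0336 and 0.0484).

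Of 6 tested chaperones that fold and load class I molecules, 5 rose in CD4 cells against C57BL/6 (Calr, Canx, Hspa5, Pdia3 and Tapbpl). In CD8 cells 2 rose (Pdia3 and Tapbpl). Of all genes tested, 9.29% rose in CD4 and 5.68% in CD8 cells. The median log2 changes of the 6 were 0.55 and 0.14. Tapbpl, a relative of tapasin that edits peptides, rose from a mean of 353 to 639 CPM in CD4 cells and from 352 to 533 CPM in CD8 cells (adjusted p 0.000794 and 0.0256). Pdia3, the partner bound to tapasin, rose from 510 to 663 CPM and from 357 to 519 CPM (adjusted p 0.0262 and 0.0047). Calr, calreticulin, rose from 651 to 1106 CPM in CD4 cells (adjusted p 0.000136) and stood at 721 and 683 CPM in CD8 cells (adjusted p 0.765). The difference between its cell types was -0.84 (adjusted p 0.0073). Canx, calnexin, rose in CD4 cells (log2 0.49, adjusted p 0.00448) and had a log2 change of -0.02 in CD8 cells (adjusted p 0.937), 0.03 when only library size was scaled. Its difference between cell types, -0.52, missed the threshold (adjusted p 0.0675). Against pMT-10 without zinc, 4 of the 6 chaperones rose in CD4 cells (Calr, Canx, Pdia3 and Tapbpl), where 9.38% of all genes did. The median log2 change of the 6 was 0.51 there.

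B2m, the shared light chain of class I, lay at 6452, 5870 and 5457 CPM in zinc-fed pMT-10 CD4 cells, at 4869, 5139 and 4640 CPM in C57BL/6 and at 4597, 4235 and 4220 CPM without zinc. The groups did not overlap, yet the log2 change of 0.28 against C57BL/6 did not pass (SE 0.16, adjusted p 0.251), nor did 0.45 against pMT-10 without zinc (adjusted p 0.0596), a change called without the low count filter (adjusted p 0.0439). A fit of the CD4 libraries alone called both (adjusted p 0.0228 and 0.00135), and DESeq2 the second (adjusted p 0.0308). In CD8 cells B2m lay at 5203, 6508 and 5074 CPM against 4799, 6540 and 4721 CPM in C57BL/6 and 4380, 6833 and 4239 CPM without zinc. Replicate 2 was the highest of each CD8 group. Those 3 libraries also had the lowest totals of their groups, 11111558, 10546798 and 10601653 counts for C57BL/6, zinc-fed pMT-10 and pMT-10 without zinc; the part of depth in these levels was not tested.

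The class I heavy chains, which pair with B2m, changed in part of their members. Of 13 tested, 2 rose in CD4 cells against C57BL/6 (H2-T22 and H2-M3), where 9.29% of all genes rose. In CD8 cells 4 rose (H2-T22, H2-M3, H2-Q4 and H2-Q6), where 5.68% of all genes did. The median log2 changes of the 13 were 0.22 and 0.06. The classical chain H2-K1 had means of 10447 and 12178 CPM in C57BL/6 and zinc-fed pMT-10 CD4 cells (log2 0.22, adjusted p 0.236), and H2-D1 means of 3318 and 4322 CPM (log2 0.38, adjusted p 0.0604). H2-T22, a nonclassical chain, rose from 144, 161 and 196 CPM to 333, 286 and 303 CPM in CD4 cells (adjusted p 3.96e-05). In CD8 cells H2-T22 rose from a mean of 192 to 255 CPM (adjusted p 0.045) and H2-Q4 from 432 to 763 CPM (adjusted p 0.000558). Against pMT-10 without zinc, 13 of 13 missed the threshold in CD8 cells. These chains are near copies of each other, so which chain a read belongs to is uncertain.

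Erap1, which trims peptides in the endoplasmic reticulum, lay at 166, 137 and 151 CPM in zinc-fed pMT-10 CD4 cells, at 87.6, 105 and 86.6 CPM in C57BL/6 and at 106, 112 and 91.6 CPM without zinc. It rose 1.63-fold against C57BL/6 (log2 0.70, SE 0.15, adjusted p 0.00169). Against pMT-10 without zinc it rose by 0.55 (adjusted p 0.0107), a call lost without replicate 3 of that control (adjusted p 0.0666) and when only library size was scaled (log2 0.40, adjusted p 0.0631). In CD8 cells Erap1 lay at 160, 152 and 170 CPM against 152, 119 and 170 CPM in C57BL/6, and the groups shared their highest value (log2 0.13, adjusted p 0.669). In C57BL/6 mice Erap1 was 1.58-fold higher in CD8 than in CD4 cells (log2 0.66, adjusted p 0.00225), and in zinc-fed pMT-10 mice the cell types differed by 0.09 (adjusted p 0.7). The interaction itself missed the threshold (-0.58, SE 0.21, adjusted p 0.108), and passed without C57BL/6 CD8 replicate 2 (-0.72, adjusted p 0.0400). Of the other 6 tested peptidases, which trim or destroy peptides, log2 changes ran from -0.30 (Nrd1) to 0.38 (Blmh) in CD4 cells and from -0.38 (Npepps) to 0.29 (Tpp2) in CD8 cells, and the lowest adjusted p was 0.117.

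**Figure D4:**
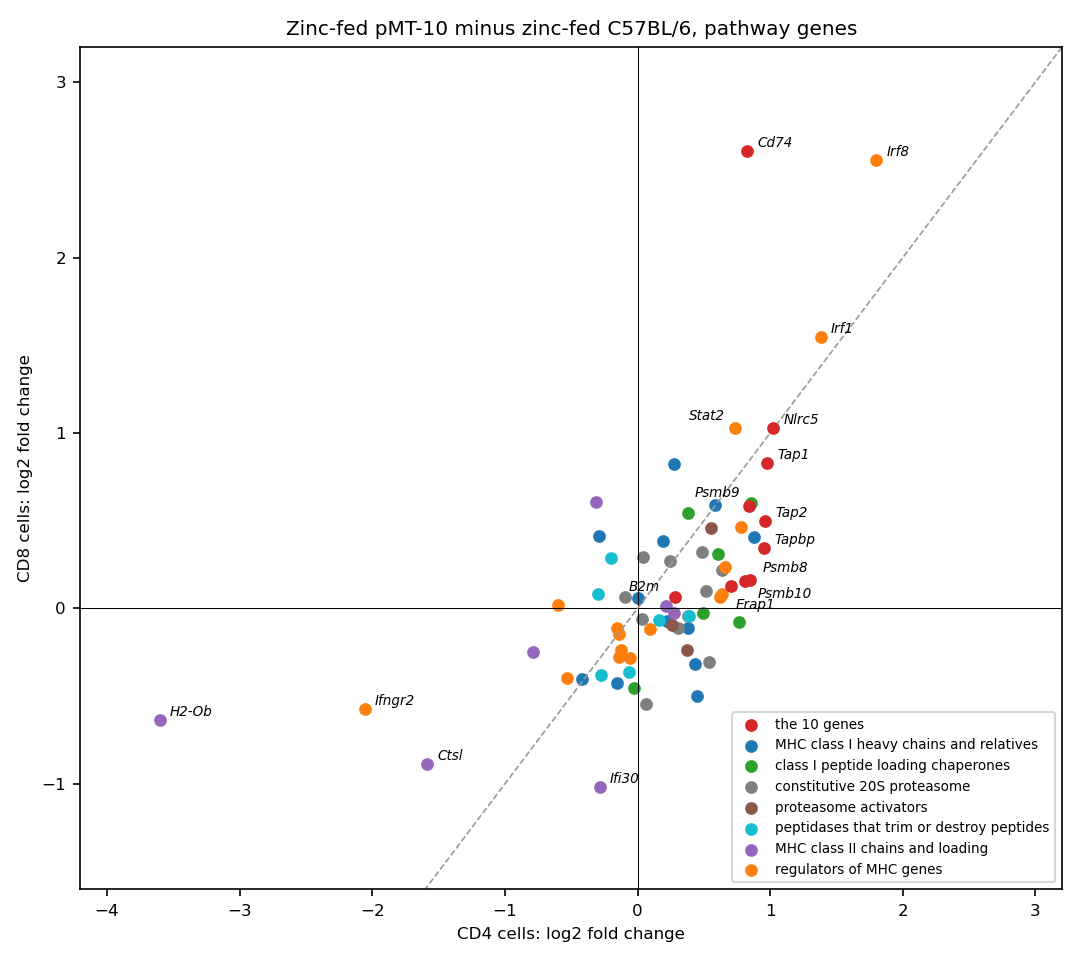
Log2 change of 61 pathway genes with a mean of at least 5 CPM, zinc-fed pMT-10 over C57BL/6 given zinc, in CD4 cells (x axis) and CD8 cells (y axis), coloured by gene list; the 10 genes are labelled and the dashed line marks equal change. Nlrc5 lies close to the line, Psmb8, Psmb10, Erap1 and Tapbp lie below it, and Cd74 lies above it.

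Cd74 had another pattern. Its RNA was plentiful in CD4 cells and scarce in CD8 cells: 266, 203 and 194 CPM against 6.26, 5.33 and 2.61 CPM in C57BL/6, a log2 difference of -5.57 (adjusted p 1.37e-09). In zinc-fed pMT-10 CD8 cells it lay at 23.8, 36.3 and 25.3 CPM and in pMT-10 without zinc at 5.18, 4.68 and 7.74 CPM. The zinc-fed pMT-10 libraries stood well above both controls. The CD8 rise was 6.01-fold against C57BL/6 (log2 2.61, SE 0.34, adjusted p 4.35e-05) and 4.85-fold against pMT-10 without zinc (adjusted p 0.000132). In CD4 cells Cd74 lay at 280, 588 and 305 CPM in zinc-fed pMT-10 and at 192, 265 and 165 CPM without zinc. Replicate 2 of zinc-fed pMT-10 stood high and the other 2 libraries lay just above the controls.

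The CD4 call of Cd74 against C57BL/6 was weak (log2 0.82, SE 0.28, adjusted p 0.0483). Without zinc-fed pMT-10 replicate 2 the log2 change was 0.41 (adjusted p 0.300), and without replicate 1, 2 or 3 of C57BL/6 the adjusted p was 0.0542, 0.147 and 0.128. It was also lost when only library size was scaled (adjusted p 0.0882) and when CD4 libraries were fitted alone (adjusted p 0.0660). Against pMT-10 without zinc (log2 0.92, adjusted p 0.0282) it was lost without zinc-fed pMT-10 replicate 2 (0.50, adjusted p 0.193) or without replicate 1 or 3 of the control (adjusted p 0.0966 and 0.124), and when only library size was scaled (0.77, adjusted p 0.0644). The CD8 change exceeded the CD4 change by 1.79 (SE 0.44, adjusted p 0.0225). That difference was lost when any of 5 libraries was left out: C57BL/6 CD4 replicate 1, C57BL/6 CD8 replicate 3, zinc-fed pMT-10 CD4 replicates 1 and 3, and zinc-fed pMT-10 CD8 replicate 2 (log2 1.46 to 1.63, adjusted p 0.0543 to 0.0677). With pMT-10 without zinc as the control it was 1.34 (adjusted p 0.0848).

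Cd74 is abundant in B cells, macrophages and dendritic cells, so their markers were read in the same libraries. The B cell markers Pax5, a factor that defines the lineage, and Fcer2a had 0 counts in all 18 libraries. Some other markers of this list lay near the floor. Ebf1, Blnk and Spib were absent from C57BL/6 CD4 libraries. Zinc-fed pMT-10 CD4 replicate 2 held 12, 13 and 4 reads of them, and replicate 3 held 6 of Blnk. The reverse held for Ms4a1, with 4 reads in C57BL/6 CD4 replicate 2. Among CD8 libraries, Blnk (18 reads) and Cr2 (1 read) were found in zinc-fed pMT-10 but not in C57BL/6. Each of these was also read in that cell type of pMT-10 mice without zinc. The 9 B cell markers found of 10 summed to 43.4 to 53.1 CPM in C57BL/6 CD8 cells and to 28.4 to 45.9 CPM in zinc-fed pMT-10 CD8 cells; in CD4 cells the sums were 26.9 to 32.4 CPM and 6.59 to 23.7 CPM, with most of each from Cd79b and Cd22 together. Of the 4 B cell markers tested, Cd79b was the only one called in CD4 cells against C57BL/6. It fell (log2 -1.64, adjusted p 0.00174), although the median log2 change of the 4 was a rise, 1.68. In CD8 cells none of the 4 was called and their median was 0.17. There Cd79b had a log2 change of -0.81 (adjusted p 0.127). Cd22, another B cell marker, went the other way in CD8 cells, with means of 7.68 CPM in C57BL/6 and 13.2 CPM in zinc-fed pMT-10 (log2 0.79, adjusted p 0.313). Replicate 2 of zinc-fed pMT-10 CD8 cells had the highest Cd74 of its group and also the highest Cd79b and Cd22. In zinc-fed pMT-10 CD4 replicate 2, where Cd74 stood high, Cd79b was 12.7 CPM against 4.57 and 3.97 CPM in replicates 1 and 3, and H2-Ob and Ifngr2 also lay nearer to the controls. The part of B cells or other cells in the Cd74 levels was not tested.

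The macrophage list moved upward with Cd74. Its 9 markers found of 10 summed to 3.95 to 14.6 CPM in C57BL/6 CD8 cells and 14.9 to 34.1 CPM in zinc-fed pMT-10 CD8 cells, and to 7.46 to 10.1 and 22.1 to 33.0 CPM in CD4 cells. Most of each sum came from Cd68, at 13.5 to 34.0 CPM in zinc-fed pMT-10 CD8 cells. In CD4 cells Cd68 was called higher against both controls. Of the 2 markers of this list that were tested, neither was called in CD8 cells against C57BL/6. Csf1r, the receptor that defines the lineage, stayed at 0 to 0.524 CPM over all 18 libraries, and Adgre1, Ms4a7 and Fcgr1 had 0 counts in zinc-fed pMT-10 CD8 cells. In zinc-fed pMT-10 CD4 cells, where the sum was also higher, these 3 markers had 2, 2 and 1 counts over the group, against 0 in C57BL/6 CD4 cells; in C57BL/6 CD8 cells Adgre1 had 1 count. The part of macrophages in the Cd74 result was not tested. In bulk samples fewer cells of a type and less RNA per cell cannot be told apart. The 9 dendritic cell markers summed to 228 to 282 CPM in C57BL/6 CD8 cells and 178 to 247 CPM in zinc-fed pMT-10 CD8 cells, and to 123 to 144 and 83.7 to 138 CPM in CD4 cells. Most of each sum came from Bst2, which other cells also express. Xcr1 and Clec9a, markers of conventional dendritic cells, had 0 counts in zinc-fed pMT-10 libraries of both cell types. Both also had 0 counts in both CD8 control groups, and some counts in both CD4 control groups. Flt3 had 0 counts in both CD8 control groups and some in zinc-fed pMT-10 CD8 cells, while among CD4 groups only C57BL/6 had some. Cd209a had 0 counts in both CD4 control groups and some in zinc-fed pMT-10 CD4 cells. Siglech had 0 counts in both pMT-10 CD8 groups and some in C57BL/6 CD8 cells. Zbtb46 and Itgax of the same list had higher means in zinc-fed pMT-10 than in C57BL/6 and did not pass the test. Zbtb46 had means of 10.7 and 5.39 CPM in CD4 cells and 0.961 and 0.486 CPM in CD8 cells (adjusted p 0.253 and 0.485). Itgax had means of 1.29 and 0.659 CPM in CD4 cells and 2.75 and 0.519 CPM in CD8 cells (adjusted p 0.702 and 0.364). The part of dendritic cells in the Cd74 result was not tested.

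The class II chains that Cd74 accompanies were close to absent. H2-Aa lay at 2.22, 0.565 and 1.76 CPM in zinc-fed pMT-10 CD8 cells and at 0.343, 0.654 and 0 CPM in C57BL/6 (adjusted p 0.299). In CD8 cells H2-Aa was called higher than in pMT-10 without zinc, with 26, 6 and 24 counts against 0, 0 and 1 (adjusted p 0.0293), too near the floor for a fold. H2-Ab1 stayed under 1 CPM in all 18 libraries and H2-Eb1 between 0 and 5.17 CPM. Of 16 tested genes of class II chains and loading, 3 fell in CD4 cells against C57BL/6 (Ctsl, H2-Ob and Lgmn). In CD8 cells 1 rose (Cd80) and 1 fell (Ifi30). Of all genes tested, 9.4% fell in CD4 cells, and 5.68% rose and 3.13% fell in CD8 cells. The median log2 changes of the 16 were -0.06 and -0.01. H2-Ob, a chain of the H2-O complex that restrains peptide loading on class II, fell from 101, 91.4 and 78.0 CPM to 2.87, 14.6 and 5.24 CPM in CD4 cells (log2 -3.60, adjusted p 2.09e-06). In CD8 cells H2-Ob lay at 63.6, 69.2 and 41.6 CPM against 98, 89 and 84.1 CPM in C57BL/6, without overlap (log2 -0.64, adjusted p 0.259, and 0.0095 without the low count filter). The CD8 fall of H2-Ob passed against pMT-10 without zinc, which lay at 127, 132 and 119 CPM (log2 -1.12, adjusted p 0.0429). The CD8 change of H2-Ob minus the CD4 change, both against C57BL/6, was 2.97 (adjusted p 0.00204). Ctsl, cathepsin L, which degrades the invariant chain, fell in CD4 cells from a mean of 12.7 to 4.27 CPM (adjusted p 0.00139). Ifi30, a thiol reductase of the same compartment, fell in CD8 cells from 71.4 to 35.3 CPM (adjusted p 0.00174). Cd80, a costimulatory ligand, had 0, 0 and 1 counts in C57BL/6 CD8 cells and 9, 13 and 28 in zinc-fed pMT-10 CD8 cells (adjusted p 0.00013), which is too near the floor for a fold.

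**Figure D5:**
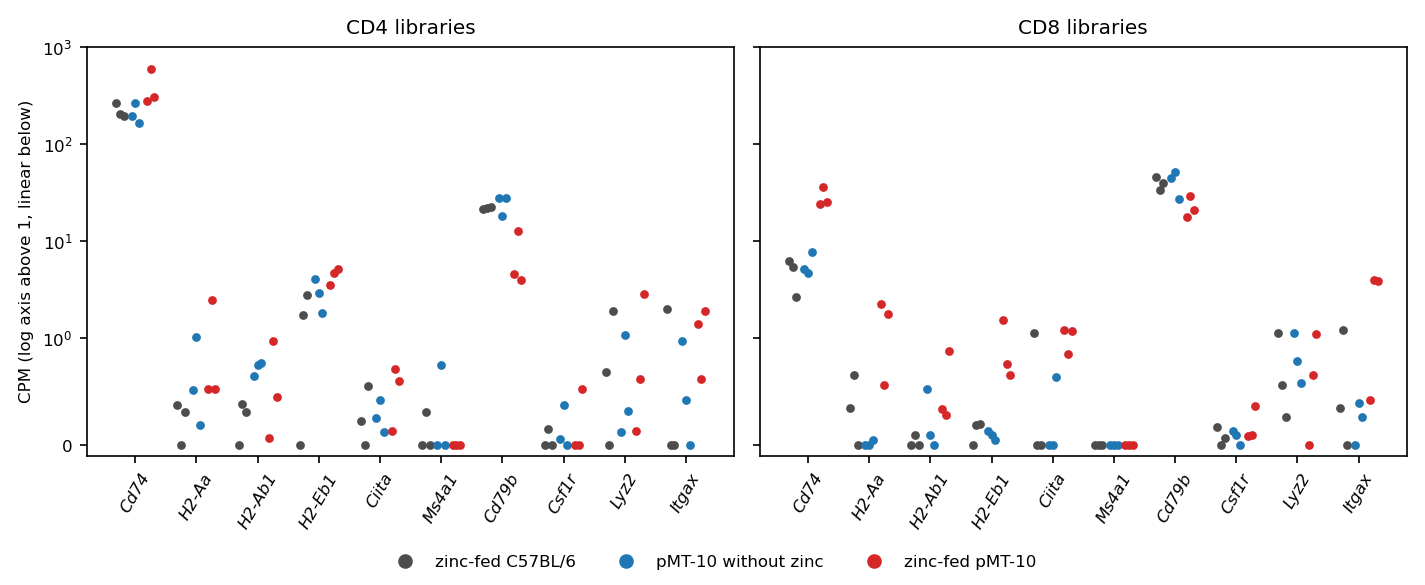
CPM of Cd74, class II genes and markers of B cells, macrophages and dendritic cells in each library, CD4 cells on one side and CD8 cells on the other; the axis is logarithmic above 1 CPM and linear below. Cd74 is highest in zinc-fed pMT-10 in both cell types, while H2-Ab1 and Csf1r lie under 1 CPM in every library.

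The cell types were also compared within each kind of mouse. In zinc-fed pMT-10 mice Tap2, Tapbp and Psmb8 were lower in CD8 than in CD4 cells, with log2 differences of -0.66, -0.55 and -0.45 (adjusted p 0.00102, 0.00359 and 0.0145), and so was Cd74 (log2 -3.78, adjusted p 5.92e-08). Those were 4 of the 10 genes, all lower, where 14.7% of all genes were called lower. The Psmb8 call was lost without zinc-fed pMT-10 CD4 replicate 1 (adjusted p 0.0704). In C57BL/6 mice 2 of the 10 were called, Erap1 higher and Cd74 lower in CD8 cells, where 22.2% of all genes were called in either direction. In pMT-10 mice without zinc 3 were called, where 21.7% of all genes were: Cd74 (log2 -5.12), Nlrc5 (-0.44, adjusted p 0.0223) and Erap1 (0.46, adjusted p 0.0284). The Nlrc5 call was lost without CD8 replicate 1, CD8 replicate 3 or CD4 replicate 2 of that group, and the Erap1 call without replicate 1 or 3 of either cell type or when only library size was scaled (adjusted p 0.0842). The labels do not say which CD4 and CD8 libraries came from the same mouse, so these contrasts treat them as separate samples.

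Across the 18 libraries the 8 class I genes other than B2m had pairwise Pearson r of log2 CPM from 0.293 to 0.924, with a median of 0.785. These values describe libraries that share groups, chip and depth. By the same measure the genes most like Nlrc5 were Jak3 (r = 0.974), a kinase of cytokine receptors, Zbp1 (0.956), a sensor of nucleic acids, Napsa (0.953), Kcnk5 (0.953) and Asap2 (0.949). The genes most like Cd74 were H1f0 (0.977), Map6 (0.975), Kctd17 (0.975), Cd200r1 (0.973) and Anxa4 (0.973), for which the difference between CD4 and CD8 libraries makes up much of the spread. Other T cell genes also differed between groups of CD4 libraries. The 10 T cell markers found of 11 summed to 13224 to 15390 CPM in zinc-fed pMT-10 CD4 cells, to 9346 to 10197 CPM in C57BL/6 and to 8371 to 9039 CPM without zinc. In CD8 cells the sums were 11153 to 13749, 14600 to 16161 and 12515 to 14449 CPM. The part of this in the CD4 result was not tested.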

How the data were processed

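The deposited files hold raw counts per gene, with 1 amplicon per gene, per the file headers; libraries were made with an Ion AmpliSeq mouse transcriptome kit, a targeted panel, per the labels. The build is mm10 per the submitters' processing notes, while the aligner is not given in the sources used here, nor is the counter. Molecular identifiers are not mentioned, so reads may be copies of one another. All 18 libraries were used and no 2 were identical. Replicate numbers were given in record order and only name libraries.

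The filterByExpr rule on low counts kept 11316 genes. Counts were scaled with TMM and fitted in edgeR 4.0.16 (R 4.3.3) by the robust quasi-likelihood method, with 6 group means over all 18 libraries and Benjamini-Hochberg adjustment over all genes tested; called means an adjusted p under 0.05. CPM use TMM library sizes, given as mean ± SD of 3 libraries, and folds are ratios of mean CPM. The SE of a log2 change was worked back from the test, as its size over the square root of the F statistic. With 1 amplicon per gene, CPM were not compared between genes. An interaction contrast tested whether the change differed between cell types. Ratios used counts plus 0.5 and exact two-sided permutation tests. Alternatives were DESeq2 1.42.0, its size factors in edgeR, library size alone, no low count filter, a fold minimum of 2, a fit of only the libraries compared or their cell type, ratio offsets of 0 and 5, each library left out in turn, and, chosen after seeing the data, pMT-10 without zinc as the control of the interaction.

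On simulated counts for the CD4 comparison with C57BL/6 over 11069 genes, the test called 76% of 4-fold, 57.1% of 2-fold and 20% of 1.5-fold changes and 0.037% of unchanged genes. In genes above 50 CPM it called 100%, 85%, 36% and 0.076%. Folds of 1.5, 2, 4 and 0.25 were given to 50, 49, 50 and 50 genes, and 10870 genes were unchanged. The comparison itself called 1051 genes higher and 1064 lower of 11316. With the adjustment over all genes, the shares called in the data may therefore differ.

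The 10 genes, the pathway lists and the marker lists were chosen with earlier results of these data known. Named besides the 10 were up to 4 called genes per pathway list with the smallest adjusted p against C57BL/6, the counterparts Psmb6 and Psmb7, Irf1 and Ciita, the 5 genes most like Nlrc5 and Cd74 in log2 CPM (prior count of 2), and H2-K1, H2-D1, H2-Aa, H2-Ab1, H2-Eb1 and single markers, chosen after their values were seen. Psmb5, Psme2 and H2-T23 were not analysed here. Of the marker lists not described with the results, 6 of 7 plasma cell markers summed to 62.7 to 190 CPM per library, nearly all Xbp1, and 10 neutrophil markers to 0.172 to 5.49 CPM. The 3 erythroid markers found of 7 summed to 0 to 3.90 CPM. The 6 NK cell markers summed to 52.7 to 68.3 CPM in C57BL/6, 296 to 378 in zinc-fed pMT-10 and 175 to 200 CPM in pMT-10 CD4 cells without zinc, and to 102 to 230 CPM in CD8 cells, with Eomes, which activated T cells also express, at 281 to 368 CPM in zinc-fed pMT-10 CD4 cells. Gene coordinates are those of GENCODE vM21 on GRCm38, and promoters those of RefSeq on GRCm38.p6.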

Additional observations from a re-analysis of the deposited data

Results flagged for a closer look

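The change from C57BL/6 to pMT-10 mice, both given zinc, differed between CD8 and CD4 cells for 2 of the 10 genes by the interaction test of edgeR. For Psmb8 the CD8 change minus the CD4 change was -0.69 on the log2 scale (SE 0.19, adjusted p 0.036), with 1.80-fold in CD4 and 1.12-fold in CD8 cells. For Cd74 it was 1.79 (SE 0.44, adjusted p 0.0225), with 1.77-fold in CD4 and 6.01-fold in CD8 cells. Over all genes tested, 5.49% had a called difference. Of the 12 fits that leave out a library, the Psmb8 call was kept in 4 and the Cd74 call in 7, and neither passed with pMT-10 without zinc as the control.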

How the results depend on the processing

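No paired analysis was possible because the labels give no replicate numbers that CD4 and CD8 libraries or the groups share. Of the 8 genes called higher in CD4 cells against C57BL/6 besides Cd74, all 8 were called in each of the 6 fits that left out a library and in the 5 other settings without a fold minimum; in CD8 cells this held for Nlrc5, Tap1 and Cd74. Leaving out libraries in turn gave 8 to 9 called genes in CD4 and 3 to 5 in CD8 cells against C57BL/6, 7 to 9 and 3 to 4 against pMT-10 without zinc, and 0 to 0 between the controls. It gave 2 to 3 between cell types in C57BL/6, 3 to 5 in zinc-fed pMT-10, 1 to 3 in pMT-10 without zinc, and 0 to 3 for the interaction. A fold minimum of 2, which is stricter by construction, left 1 gene in CD4 and 2 in CD8 cells against C57BL/6, 0 and 1 against pMT-10 without zinc, 1 between cell types in each kind of mouse, and 1 for the interaction. Scaling by library size alone left 1 for the interaction, and pMT-10 without zinc as its control left 0; the cause was not tested.

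Scaling by library size alone moved the median log2 change of all genes from -0.05 to -0.16 in CD4 cells against C57BL/6, to -0.20 against pMT-10 without zinc, and from 0.05 to 0.21 for the interaction. The split of higher and lower calls went from 1051 and 1064 to 831 and 1448, from 1061 and 1064 to 770 and 1688, and from 386 and 235 to 648 and 120; between cell types in zinc-fed pMT-10 it went from 1512 and 1666 to 1845 and 1354. DESeq2 called 21 and 12 genes between the CD4 controls, where edgeR called 9 and 7, 14 and 28 between the CD8 controls, where edgeR called 3 and 8, and 608 and 422 for the interaction. Without the low count filter these were 34 and 49, 45 and 62, and 714 and 341. With a fold minimum of 2 the calls against C57BL/6 were 470 and 581 in CD4 cells, and 417 and 86 in place of 643 and 354 in CD8 cells.

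A change of sign occurred in 48 values of single genes, 38 of them with a library left out and 0 of them for a called change; the largest value with all libraries was 0.243. With library size alone Psmb6 in CD4 cells was -0.046 and Canx in CD8 cells 0.029 against C57BL/6, Tap2 between the CD4 controls 0.035, Tapbp between cell types in C57BL/6 -0.0099, B2m between cell types in zinc-fed pMT-10 0.0071, and the interaction of Tap1 0.017. Tap2 between the CD4 controls was 0.0066 without the filter, and the interaction of Nlrc5 was -0.0011 with DESeq2's size factors, -0.0066 without the filter and -0.0010 in DESeq2. With a library left out, CD8 changes against C57BL/6 were -0.044 to 0.25 for B2m, -0.15 to 0.046 for Calr and -0.072 to 0.031 for Canx, and the CD4 change of Psmb6 was -0.056 to 0.22; B2m against pMT-10 without zinc in CD8 cells was -0.0043 to 0.37. Between the CD4 controls they were -0.31 to 0.061 for Cd74, -0.38 to 0.0022 for Psmb10, -0.14 to 0.052 for Psmb8, -0.26 to 0.062 for Psmb9 and -0.081 to 0.074 for Tap2. Between the CD8 controls they were -0.31 to 0.11 for B2m, -0.19 to 0.071 for Erap1, -0.010 to 0.38 for Psmb9 and -0.052 to 0.091 for Tap2. Between cell types they were -0.012 to 0.37 for B2m in pMT-10 without zinc and, in C57BL/6, -0.041 to 0.22 for B2m, -0.12 to 0.29 for Psmb9 and -0.018 to 0.20 for Tapbp. The interaction was -0.16 to 0.12 for Nlrc5 and -0.28 to 0.037 for Tap1. Ratio offsets of 0 and 5 moved no ratio by more than its spread. With 3 libraries a group, simulated 1.5-fold changes were called in 20% of genes, or 36% of those above 50 CPM. That simulation changed far fewer genes than were called in the data. Exact tests of 3 against 3 libraries cannot go below 0.1.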
